A study of Homo sapiens with 8 samples.

Results

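The SREBP programme is the set of genes through which sterol regulatory element binding proteins control the making of cholesterol and fatty acids. Its 31 members were taken by name from a count table of 58735 genes, and all 31 were present and had enough counts to be tested among 15084 genes. They were 19 genes of the sterol arm (18 enzymes and the sterol carrier STARD4), 7 enzymes of the fatty acid arm and 5 regulators. The study gave exosomes of M2-type THP-1 macrophages (M2-exo) to Caco-2 cells. THP-1 is a human monocytic leukaemia line and Caco-2 a human colorectal carcinoma line used as a stand-in for intestinal epithelium. The mRNA of wild-type Caco-2 cells was measured after buffer alone (PBS, 3 libraries, called untreated) and after M2-exo (3 libraries, called treated), with all cells kept in medium with fetal bovine serum. The labels state neither the dose, nor the time, nor whether replicates were separate cultures. Every p-value therefore measures only the spread between these libraries, which may be technical. A further pair of small RNA libraries, 1 of M0-exo and 1 of M2-exo, enters only in the last paragraph.

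In the endoplasmic reticulum, the precursors encoded by SREBF1 and SREBF2 are bound to the escort protein SCAP. When membrane sterol is high, INSIG1 and INSIG2 hold SCAP in place. When sterol is low, SCAP carries the precursor to the Golgi, where proteases free the part that enters the nucleus and switches on target genes. The product of SREBF2 acts mostly on genes of sterol synthesis, and the main product of SREBF1 in liver and gut mostly on genes of fatty acid synthesis. The arms share acetyl-CoA as their starting material, and INSIG1 is itself a target of the pathway.

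The 6 libraries held 15608937 to 18324599 counts, of which the 31 members took 0.647% to 0.668% in untreated and 0.583% to 0.635% in treated cells. Genes of the mitochondrial chromosome took 4.16% in untreated 1 and 7.01% to 8.11% in the other 5 libraries. The labels give the cell type as stem cells; of 6 pluripotency markers, NANOG and DPPA4 were at 0 and SOX2 alone was above 1 CPM (counts scaled to the library total). Of 12 intestinal epithelial markers, 9 were above 10 CPM in all libraries, with CDH1 from 1038 to 1149 and VIL1 from 513 to 667, while CDX1, KRT20 and APOA4 stayed at or below 1.41 CPM. The 12 macrophage markers summed to 16.6 to 21.8 CPM in untreated and 12.9 to 20.5 in treated cells, with CD68 and TYROBP at 0. The 7 fibroblast markers summed to 27.0 to 47.1 CPM in untreated and 27.1 to 41.6 in treated cells, mostly COL1A1 (19.7 to 36.4). In bulk libraries such as these, fewer cells that express a gene and less RNA of it per cell cannot be told apart.

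SREBPs bind sterol regulatory elements, usually close to sites of the factors NF-Y and Sp1, so promoters of members that the values below turn on are shown. They come from RefSeq (GRCh38.p14) and run from 250 bases before to 50 bases after the RefSeq start, on the strand of the gene. That start can differ from the gene start in the count table. SREBF2 codes for a regulator, INSIG1 had the lowest log2 fold change of the 31, HMGCS1 and MVD differed between libraries in opposite directions, and SCD had the highest level. Capitals mark TCACNCCAC, a form of the sterol regulatory element, and CCAAT, the NF-Y box, on either strand. The windows are chr22:41832855-41833154 (plus strand), chr7:155297628-155297927 (plus), chr5:43313363-43313662 (minus), chr16:88663042-88663341 (minus) and chr10:100346983-100347282 (plus).
SREBF2: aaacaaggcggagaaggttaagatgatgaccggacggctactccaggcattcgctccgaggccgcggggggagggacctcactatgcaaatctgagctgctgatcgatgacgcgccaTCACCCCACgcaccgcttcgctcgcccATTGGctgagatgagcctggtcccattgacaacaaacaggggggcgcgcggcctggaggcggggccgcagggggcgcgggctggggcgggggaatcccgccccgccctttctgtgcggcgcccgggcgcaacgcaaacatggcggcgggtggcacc
INSIG1: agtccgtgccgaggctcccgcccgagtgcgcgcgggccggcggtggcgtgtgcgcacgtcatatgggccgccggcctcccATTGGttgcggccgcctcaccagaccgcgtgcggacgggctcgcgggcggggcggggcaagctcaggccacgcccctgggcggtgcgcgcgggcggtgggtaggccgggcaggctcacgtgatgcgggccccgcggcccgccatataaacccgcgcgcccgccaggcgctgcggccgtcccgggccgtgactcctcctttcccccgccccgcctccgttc
HMGCS1: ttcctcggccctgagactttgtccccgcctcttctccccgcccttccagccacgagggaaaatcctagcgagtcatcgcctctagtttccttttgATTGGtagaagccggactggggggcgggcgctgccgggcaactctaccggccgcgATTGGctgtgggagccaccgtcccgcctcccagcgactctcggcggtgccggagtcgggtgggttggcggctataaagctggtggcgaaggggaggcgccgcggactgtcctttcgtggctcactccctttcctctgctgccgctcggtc
MVD: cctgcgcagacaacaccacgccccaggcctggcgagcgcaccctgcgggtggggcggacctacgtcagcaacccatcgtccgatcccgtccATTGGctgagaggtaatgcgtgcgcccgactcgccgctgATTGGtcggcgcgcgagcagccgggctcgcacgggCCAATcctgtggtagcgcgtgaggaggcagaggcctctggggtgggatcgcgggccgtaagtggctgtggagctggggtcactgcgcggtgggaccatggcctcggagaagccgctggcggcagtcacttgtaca
SCD: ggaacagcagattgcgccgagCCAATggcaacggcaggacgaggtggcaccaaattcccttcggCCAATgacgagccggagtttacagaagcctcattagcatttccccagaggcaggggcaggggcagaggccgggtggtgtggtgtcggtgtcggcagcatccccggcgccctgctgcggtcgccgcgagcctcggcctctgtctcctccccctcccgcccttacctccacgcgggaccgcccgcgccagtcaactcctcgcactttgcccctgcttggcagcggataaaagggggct

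The SREBF2 window held the sterol element at position -133 and 1 CCAAT box, in reverse, at position -106 from the RefSeq start. INSIG1 had 1 CCAAT box, HMGCS1 had 2, MVD had 3 and SCD had 2. Of the 31 members, 27 had a promoter in the RefSeq table, the others being SQLE, FASN, FDFT1 and ACAT2, and where a gene had several windows any of them counted. TCACNCCAC was found in 1 of the 27, SREBF2, and in 1.39% of the 27305 gene symbols in the table. CCAAT was found in 20 of 27 members (74.1%) and in 39.7% of all symbols: in 14 of 16 genes of the sterol arm, 4 of 6 of the fatty acid arm and 2 of 5 regulators. The 7 members without it were PMVK, CYP51A1, ELOVL6, FADS1, INSIG2, SCAP and SREBF1. GGGCGG, a core Sp1 site, was found in 26 of 27 members, NSDHL being the exception, and in 48.3% of all symbols. The shares over all symbols include genes not tested here, and shares among the genes tested were not computed. Matches of different motifs were allowed to overlap, and a match or its lack describes these letters in this window only.

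Levels were compared between genes as FPKM, which divides by gene length. The highest was SCD, stearoyl-CoA desaturase, which puts the double bond into stearate, at 295 ± 9.82 FPKM (mean ± SD, n = 3) without M2-exo and 269 ± 22.6 with it. Next came DHCR7, which makes cholesterol in the last step of one branch of the pathway, at 129 ± 28.3 and 118 ± 8.99, and ACLY, which makes cytosolic acetyl-CoA from citrate, at 93.1 ± 11.3 and 89.8 ± 6.72. The untreated range of SCD lay above that of DHCR7, while those of DHCR7 and ACLY overlapped.

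Below these 3, a group from SC5D (60.5 ± 15.3 FPKM) through FASN, HMGCS1, IDI1, EBP, INSIG1, ACAT2, MSMO1, FDFT1, SQLE and SREBF2 to FADS1 (28.0 ± 1.97) showed no gap, since each overlapped the next in untreated cells. A further run from FDPS (22.3 ± 1.38) through STARD4, LSS, SCAP, PMVK, MVD, TM7SF2, NSDHL and SREBF1 to ACACA (12.7 ± 0.262) also overlapped from gene to gene. The lowest were HSD17B7 (6.95 ± 1.26), MVK (6.49 ± 1.69), INSIG2 (6.38 ± 2.21), ELOVL6 (3.53 ± 0.585), CYP51A1 (2.81 ± 2.75) and FADS2 (2.27 ± 0.501). Both arms therefore held genes at the top and at the bottom of the order. INSIG1 stood at 43.3 ± 5.61 FPKM, far above INSIG2, and SREBF2 at 29.5 ± 6.80 against 13.3 ± 4.19 for SREBF1, with no overlap between the untreated values of either pair.

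**Figure D1:**
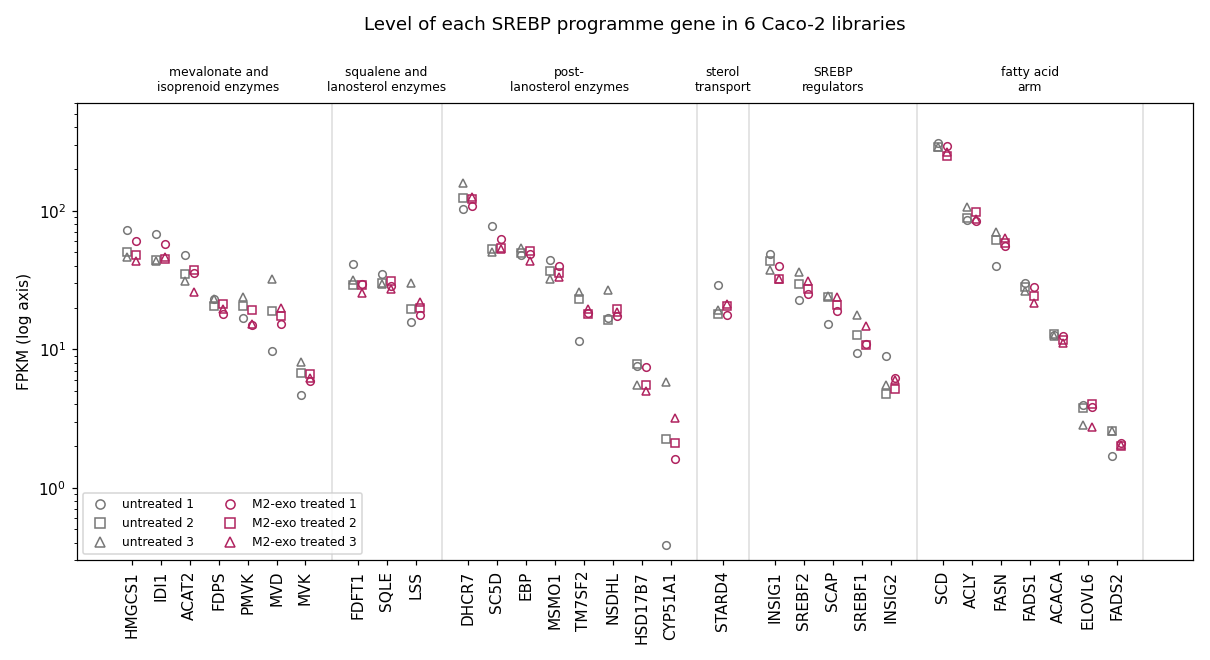
FPKM of the 31 members (log axis) in each of the 6 libraries, grouped by role; grey symbols are untreated and red symbols M2-exo treated libraries, with circle, square and triangle for replicates 1, 2 and 3. SCD lies highest and FADS2 and CYP51A1 lowest, and untreated and treated symbols of a gene overlap in all 31 members.

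Some levels are uncertain for reasons of position. By the GRCh38 coordinates of the gene table, 6 members are overlapped by a protein-coding gene with over 100 counts: ACAT2 by TCP1, MVK by MMAB, TM7SF2 by VPS51, SREBF1 by RAI1, and FADS1 and FADS2 by each other, FADS2 also by FEN1. The strand setting of the counting is not stated, and reads of such pairs may not be separable. A pseudogene named after the member was listed for 5 members (FDPS, CYP51A1, HSD17B7, SCD and FADS2). How reads that match several copies were counted is not stated either. The pseudogene with the most counts was HSD17B7P2, at 81 to 126 a library. CYP51A1, whose own counts went from 22 in untreated 1 to 374 in untreated 3, had at most 13 counts a library in any of its 3 named pseudogenes.

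The question of the comparison was whether the programme differed in Caco-2 cells after M2-exo. No member passed the test. With edgeR's quasi-likelihood test, Benjamini-Hochberg adjusted over 15084 genes, no gene was called higher (0%) or lower (0%), and the smallest adjusted p of a member was 0.9999. At an unadjusted p under 0.05 edgeR listed 111 genes (0.736%) and limma-voom 104, both of 15084. DESeq2, run without the filter on low counts, listed 124 of 29413. None of them was a member in any of the 3. A share of 0.05 would be expected with no differences, so these p-values may be conservative, and the reason was not tested. Groups did not overlap in 1.65% of genes in the higher direction and 2.30% in the lower direction, again with no member among them.

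Although none changed by the test, 28 of the 31 members had a log2 fold change below 0, against 52.9% of all genes tested. Their median was -0.13, and that of all genes -0.01. The count of members below 0 fell to 23 without untreated 1 and to 19 without untreated 3. In those fits 50.6% and 49.2% of all genes were below 0. The members were listed with earlier results for cholesterol genes in view, so the common sign is not independent evidence. A 2-fold change, up or down, lay outside the 95% interval of 29 of the 31, the other two being MVD and CYP51A1, and of 75.8% of all genes. A 1.5-fold change lay outside it for 16 members, against 45.2% of all genes. These were 8 of 19 in the sterol arm, 6 of 7 in the fatty acid arm and 2 of 5 regulators. Level matters here, since all members but CYP51A1 (9.25 CPM) averaged over 10 CPM across the libraries. Of the 9589 genes that averaged 10 CPM or more, 9217 excluded a 2-fold and 6589 a 1.5-fold change. Next to those genes, the share of the 31 members was the lower for both changes, a difference that was not tested.

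**Figure D2:**
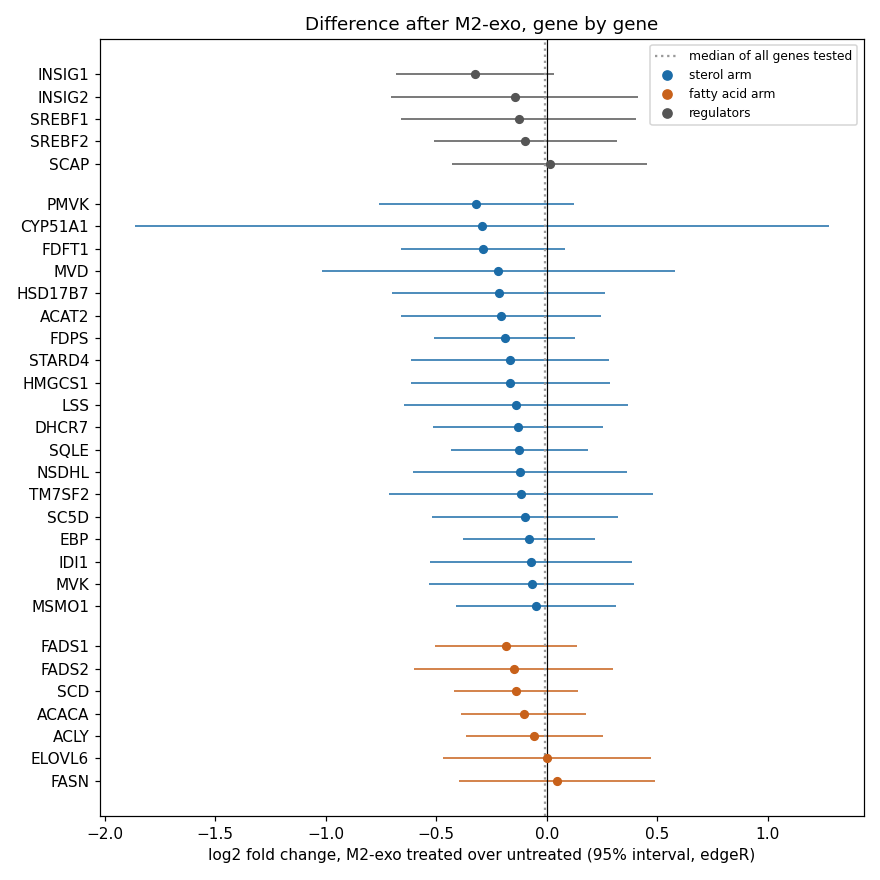
log2 fold change of each member, treated over untreated, from edgeR with its 95% interval, for regulators, sterol arm and fatty acid arm; the dotted line is the median of all genes tested. All 31 intervals include 0, and CYP51A1 has the widest, from -1.86 to 1.28.

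Among the regulators, INSIG1 had the smallest p. It stood at 180.5, 159.6 and 139 CPM without M2-exo (replicates 1 to 3) and 147, 117 and 118 with it. Its 2 lowest values were in treated 2 and treated 3, but treated 1 lay above untreated 3, so the groups overlapped. The log2 fold change was -0.33 (SE 0.16, 95% interval -0.68 to 0.03), and its adjusted p by edgeR's quasi-likelihood test over all genes was 0.9999 (0.0690 before adjustment). INSIG2, the other sterol sensor, stood at 35.6, 18.9 and 21.9 CPM without M2-exo (replicates 1 to 3) and 24.7, 20.4 and 24.0 with it. Untreated 1 was the high library and the other 5 lay within 18.9 to 24.7 CPM, with a log2 fold change of -0.15 (SE 0.25, 95% interval -0.70 to 0.41).

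SREBF2, the precursor that drives mostly sterol genes, stood at 175, 223 and 279 CPM without M2-exo (replicates 1 to 3) and 189.9, 206 and 236 with it. Its values spanned a wider range in untreated than in treated cells, and the log2 fold change was -0.10 (SE 0.18, 95% interval -0.51 to 0.32). SREBF1, the other precursor, stood at 76.0, 103 and 144 CPM without M2-exo (replicates 1 to 3) and 88.2, 86.8 and 120.1 with it, with a log2 fold change of -0.13 (SE 0.24, 95% interval -0.66 to 0.40). For both genes untreated 1 was the lowest and untreated 3 the highest of all 6. SCAP, the escort, stood at 99.0, 154 and 158 CPM without M2-exo (replicates 1 to 3) and 123, 135 and 156 with it, and its log2 fold change was 0.01 (SE 0.20, 95% interval -0.43 to 0.45). It was the only regulator above 0, and again untreated 1 was its lowest library.

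In the sterol arm, all 19 genes had a log2 fold change below 0, from -0.32 for PMVK to -0.05 for MSMO1, with a median of -0.14. This count rested on both end libraries of the untreated group: it was 13 of 19 without untreated 1, where 50.6% of all genes were below 0, and 12 of 19 without untreated 3, where 49.2% were. The 7 genes from acetyl-CoA to farnesyl diphosphate had a median of -0.19, the 3 that make squalene and lanosterol -0.14, and the 8 that turn lanosterol into cholesterol -0.12.

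PMVK, phosphomevalonate kinase, had the lowest value of the arm. It stood at 21.9, 26.6 and 30.7 CPM without M2-exo (replicates 1 to 3) and 19.2, 24.6 and 19.6 with it. Treated 2 lay above untreated 1, so the groups overlapped, and the log2 fold change was -0.32 (SE 0.20, 95% interval -0.76 to 0.12). FDFT1, squalene synthase and the first enzyme committed to sterols, stood at 218, 152 and 166 CPM without M2-exo (replicates 1 to 3) and 154, 151 and 133 with it. Here the highest value was in untreated 1 and the lowest in treated 3, while the other 4 libraries lay between 151.0 and 166 CPM. The log2 fold change was -0.29 (SE 0.16, 95% interval -0.66 to 0.08).

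CYP51A1, lanosterol demethylase, had the widest spread of all members. It stood at 1.40, 8.11 and 21.0 CPM without M2-exo (replicates 1 to 3) and 5.80, 7.58 and 11.6 with it, a 15.1-fold range among untreated libraries and a 2.00-fold range among treated ones. Its log2 fold change was -0.29 (SE 0.70, 95% interval -1.86 to 1.28) and rested on the end libraries: it was 0.80 without untreated 3 and -0.80 without untreated 1. Limma-voom gave 0.31, so for this gene the sign depended on the test.

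At the upper end of the arm stood MSMO1, MVK and IDI1. MSMO1, a sterol C4 methyl oxidase, stood at 129, 106 and 93.5 CPM without M2-exo (replicates 1 to 3) and 118, 102 and 97.5 with it, with a log2 fold change of -0.05 (SE 0.16, 95% interval -0.41 to 0.31). MVK, mevalonate kinase, stood at 30.7, 44.1 and 52.7 CPM without M2-exo (replicates 1 to 3) and 38.5, 42.7 and 40.5 with it. Its treated values lay inside the untreated range, and the log2 fold change was -0.07 (SE 0.21, 95% interval -0.53 to 0.40). IDI1, which interconverts the isoprenoid building blocks, stood at 301, 192 and 192 CPM without M2-exo (replicates 1 to 3) and 254, 194 and 203 with it. Libraries 1 were the high ones in both groups for IDI1, and the log2 fold change was -0.07 (SE 0.20, 95% interval -0.53 to 0.39).

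The other early enzymes were HMGCS1, which makes HMG-CoA, at 269 ± 67.7 CPM without and 239 ± 40.7 with M2-exo (log2 -0.17), and ACAT2, a cytosolic thiolase, at 165 ± 38.6 CPM without and 143 ± 25.7 with M2-exo (-0.21). MVD, which makes isopentenyl diphosphate, stood at 96.9 ± 54.5 CPM without and 83.3 ± 11.2 with M2-exo (-0.22), and FDPS, which makes farnesyl diphosphate, at 83.6 ± 5.65 CPM without and 73.3 ± 6.25 with M2-exo (-0.19). None of these genes was called by the test. FDPS alone among them had a log2 fold change larger in size than its untreated SD of log2 CPM, 0.10.

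SQLE, the squalene epoxidase, stood at 138 ± 14.01 CPM without and 126 ± 7.82 with M2-exo (-0.13), and LSS, which closes the sterol rings, at 159 ± 53.5 CPM without and 144 ± 15.5 with M2-exo (-0.14). Of the genes after lanosterol, HSD17B7 had a log2 fold change of -0.22, DHCR7 -0.13, NSDHL -0.12, TM7SF2 -0.12, SC5D -0.10 and EBP -0.08. The most even of the late genes across untreated libraries was EBP, the sterol isomerase, at 123 ± 6.66 CPM without and 116 ± 8.80 with M2-exo. STARD4, which carries cholesterol between membranes, stood at 127 ± 35.7 CPM without and 113 ± 10.5 with M2-exo (-0.17).

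In the fatty acid arm 5 of 7 genes were below 0, with a median of -0.11. FADS1, the delta-5 desaturase of polyunsaturated fatty acids, had the lowest value. It stood at 312, 287 and 271 CPM without M2-exo (replicates 1 to 3) and 290.1, 249.8 and 225 with it, with a log2 fold change of -0.19 (SE 0.14, 95% interval -0.51 to 0.13). Treated 1 lay above untreated 2 and 3, so the groups overlapped. FADS2, the delta-6 desaturase, was 1 of the 2 lowest-level members and stood at 18.9, 28.3 and 28.5 CPM without M2-exo (replicates 1 to 3) and 23.4, 22.2 and 22.7 with it. Its treated values lay within the untreated range, and the log2 fold change was -0.15 (SE 0.20, 95% interval -0.60 to 0.30).

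SCD, the most abundant member, stood at 1667, 1559.5 and 1569 CPM without M2-exo (replicates 1 to 3) and 1583, 1328 and 1443 with it. Treated 2 and treated 3 were below all untreated libraries and treated 1 was not. The log2 fold change was -0.14 (SE 0.12, 95% interval -0.42 to 0.14), a narrow interval next to those of the sterol genes. ACACA, the carboxylase that makes malonyl-CoA, had the smallest spread of log2 CPM among untreated libraries, with an SD of 0.03, and stood at 166 ± 3.02 CPM without and 155 ± 9.65 with M2-exo (log2 -0.11). ACLY stood at 450.5, 461 and 560.1 CPM without M2-exo (replicates 1 to 3) and 444, 508 and 463 with it, with untreated 3 the highest, and the log2 fold change was -0.06 (SE 0.14, 95% interval -0.37 to 0.25).

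FASN, fatty acid synthase, stood at 379, 581 and 663 CPM without M2-exo (replicates 1 to 3) and 525, 551 and 600.3 with it. Untreated 1 was its lowest library, and the log2 fold change was 0.05 (SE 0.20, 95% interval -0.40 to 0.49), or -0.15 without untreated 1. ELOVL6, which lengthens palmitate to stearate, stood at 29.2, 27.7 and 21.1 CPM without M2-exo (replicates 1 to 3) and 28.0, 29.6 and 20.3 with it. Library 3 was the lowest in each group, and the log2 fold change was 0.00 (SE 0.21, 95% interval -0.47 to 0.47). FASN and ELOVL6 were thus the only members of the arm not below 0.

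The arms were compared as a description, with no test, since a score over chosen members has no valid p. The median log2 fold change was -0.14 in the sterol arm and -0.11 in the fatty acid arm, a difference of -0.03. The mean log2 CPM of the sterol arm was 6.46, 6.54 and 6.75 without M2-exo (replicates 1 to 3) and 6.48, 6.50 and 6.47 with M2-exo. That of the fatty acid arm was 7.56, 7.69 and 7.68 in untreated and 7.62, 7.58 and 7.49 in treated libraries. The sterol arm lay below the fatty acid arm by this measure in every library, with differences of -1.10, -1.15 and -0.93 in untreated and -1.15, -1.08 and -1.03 in treated cells. Averaged by group, the difference between the arms was -1.06 ± 0.11 without and -1.08 ± 0.06 with M2-exo (SD, n = 3), so it moved by less than the SD of either group.

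Leaving out any 1 library put the difference between the medians between -0.12 and 0.02, and several other settings gave it a sign above 0. Within the sterol arm, the mean over the 7 early enzymes was 6.53 to 6.69 in untreated and 6.37 to 6.49 in treated libraries. These ranges did not overlap, a description with no test, although the groups of each single early enzyme did. The means over the 3 middle and 8 late enzymes, both arms and the regulators overlapped between groups, as did the difference between the arms. The early mean was thus the only one of those means to separate, and this depended on the measure. By summed CPM the early enzymes overlapped, at 818 to 1042 in untreated and 752 to 893 in treated cells. So did the middle enzymes, both arms and the regulators. The sums of the late enzymes (1201 to 1370 and 1166 to 1184) and of all 31 members (6318 to 6883 and 5930 to 6218) did not, again with no test. Summed over members, the sterol arm held 2548 to 2934 CPM in untreated and 2453 to 2587 in treated cells. The fatty acid arm held 3026 to 3275 and 2842 to 3058, with SCD its largest member at 1328 to 1667 CPM.

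**Figure D3:**
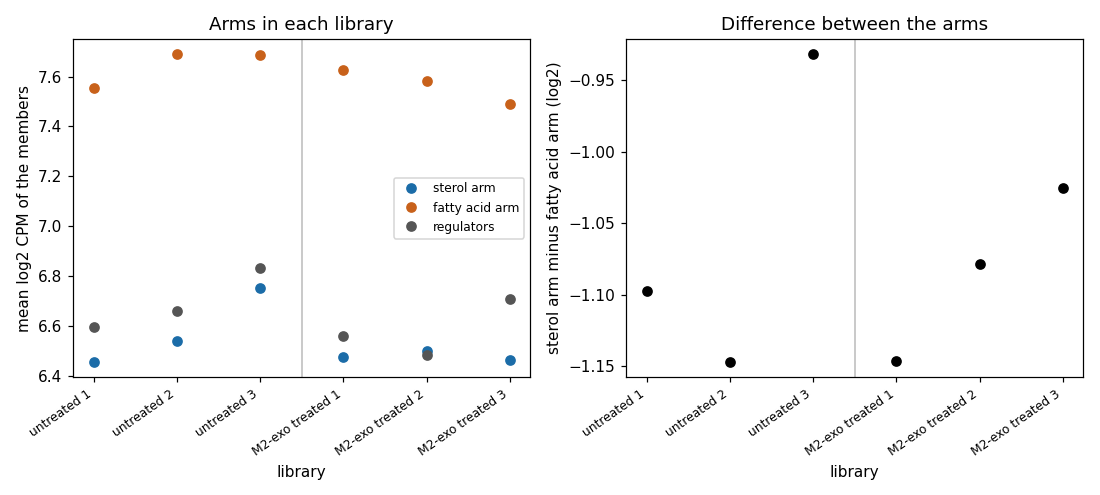
Left, mean log2 CPM over the members of the sterol arm (19 genes), the fatty acid arm (7) and the regulators (5) in each library; right, sterol arm minus fatty acid arm. Neither arm nor their difference separates the 3 untreated from the 3 treated libraries, and untreated 3 has the highest sterol arm mean, at 6.75.

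The larger differences were within the untreated group, between untreated 1 and untreated 3, and they ran in opposite directions in different members. In 15 members untreated 3 was above untreated 1 (9 sterol, 3 fatty acid, 3 regulators), and in 16 it was below (10 sterol, 4 fatty acid, 2 regulators), so each arm held both kinds. The strongest of the first kind, after CYP51A1, were chosen for description after their values were seen. MVD stood at 46.2, 89.8 and 155 CPM in untreated 1 to 3, a difference of 1.74 on the log2 scale. TM7SF2, a sterol C14 reductase, stood at 39.6, 78.7 and 89.8 CPM (1.18), and LSS at 116, 143 and 219 CPM (0.92). SREBF1 (0.92), FASN (0.80), MVK (0.77) and DHCR7 (0.62) belonged to the same kind.

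Of the second kind, HMGCS1 stood at 346, 238 and 222 CPM (-0.64), and SC5D, which makes the delta-5 double bond of sterols, at 441, 297 and 282 CPM (-0.64). IDI1 (-0.65), ACAT2 (-0.62), STARD4 (-0.61) and INSIG2 (-0.70) lay nearby. Enzymes of the same pathway thus went apart: HMGCS1 and IDI1 were highest in untreated 1, and MVK and MVD, which act between them, were lowest there. SCD (-0.09), ACACA (-0.05) and FDPS (-0.02) hardly differed.

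**Figure D4:**
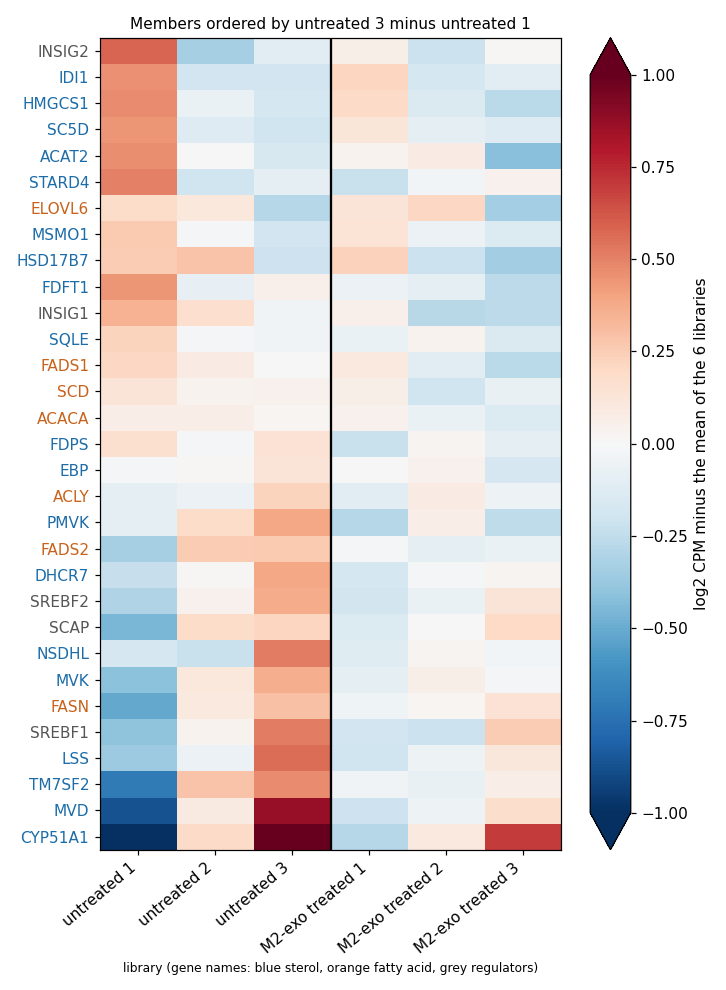
log2 CPM of each member minus its mean over the 6 libraries (red higher, blue lower, colours saturate at 1), ordered by untreated 3 minus untreated 1. Genes at the top are high and those at the bottom low in untreated 1, and the widest swing is that of CYP51A1, whose untreated 3 minus untreated 1 is 3.81.

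Untreated 1 was lowest and untreated 3 highest in 14 of 31 members, against 29.1% of all genes, and the reverse order was found in 9 of 31, against 28.7%. The same 2 replicate numbers differed in the same direction in the treated group for 27 of 31 members, against 68.6% of all genes. For MVD the treated difference was 0.38, for LSS 0.31, for HMGCS1 -0.46 and for SC5D -0.25 on the log2 scale. The exceptions were STARD4, FDPS, EBP and FADS2. Across the 31 genes the 2 differences had a Spearman rho of 0.785, and across all 15084 genes 0.457, a description over genes that share the same 4 libraries.

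Replicate SDs of log2 CPM had a median over members of 0.34 without and 0.14 with M2-exo, and over all genes of 0.30 and 0.19. In 24 of 31 members the untreated SD was the larger, as it was in 72.0% of all genes, with the exceptions FDPS, HSD17B7, EBP, ACACA, SCD, ELOVL6 and FADS1, 4 of them in the fatty acid arm. In 23 of 31 the change after M2-exo was smaller than the untreated SD, against 83.9% of all genes. Untreated 1 was also the library with the low mitochondrial share, whose part in these differences was not tested. Promoter GC content had a median of 67.5% in the members higher in untreated 3 (14 with a promoter) and 68.2% in those lower there (13 with a promoter). Across 27 members its Spearman rho with replicate 3 minus replicate 1 was -0.04 in untreated and 0.08 in treated cells. Across 10393 of all genes tested it was 0.187 and 0.174. Whether GC content has a part in these differences was not tested.

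**Figure D5:**
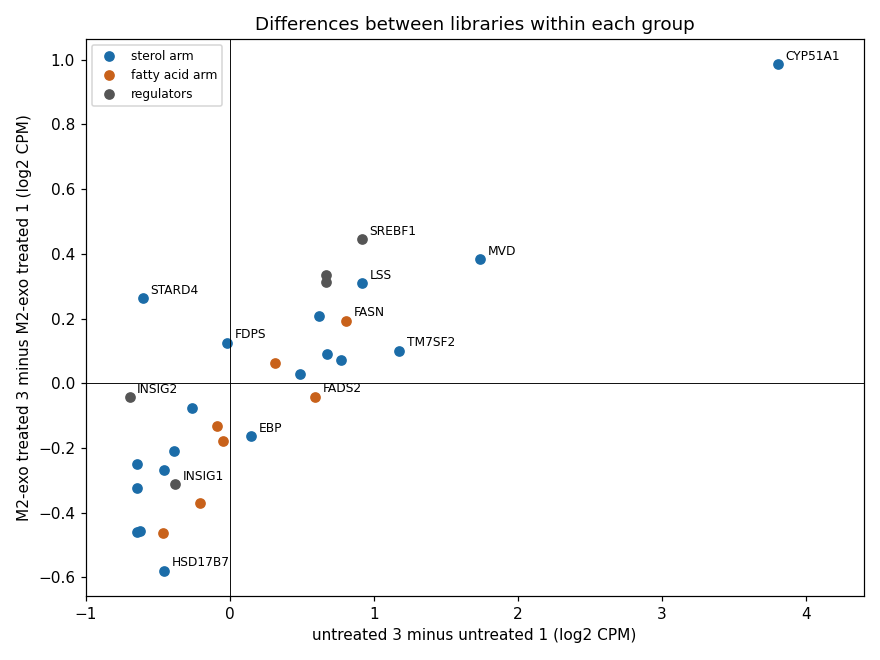
Difference between replicate 3 and replicate 1 in log2 CPM, untreated on the horizontal and M2-exo treated on the vertical axis (different scales), 1 point per member coloured by arm. Of 31 points, 27 lie where both differences have the same sign, and CYP51A1 lies far to the right at 3.81.

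Other genes of the pathway were taken from 4 lists. No gene of these lists was called by edgeR, reached an unadjusted p under 0.05 or had groups without overlap, so the genes named here are named for their role, after their values were seen. Other sterol and isoprenoid enzymes were below 0 in 6 of 9 tested genes (median log2 -0.05). Other fatty acid enzymes were below 0 in 10 of 16 (median -0.06), among them ACSS2, which makes acetyl-CoA from acetate, at -0.21. Genes of SREBP processing and degradation were below 0 in 5 of 8 (median -0.01), with the protease genes MBTPS1 at -0.08 and MBTPS2 at 0.00. Genes of the oxysterol receptors LXR and of sterol export or storage were below 0 in 6 of 12 (median -0.004), and ABCA1, the cholesterol exporter, stood at 0.24 (SE 0.49). These medians lie nearer to that of all genes, -0.01, than the sterol arm's, a difference that was not tested.

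SREBF2 and SREBF1 each carry a miRNA gene within them, MIR33A on chromosome 22 from 41900944 to 41901012 and MIR33B on chromosome 17 from 17813836 to 17813931, on the strand of the host. These miRNAs are known to act on genes of cholesterol export. The exosome table, with 286 miRNAs and totals of 13584 counts in M0-exo and 9929 in M2-exo, had no entry for either. Each of its entries had at least 1 count in 1 library, so a miRNA without counts may not have been listed. What a missing entry stands for was not tested, and no limit was drawn from it. In the gene table, SREBF2 (ENSG00000198911) on chromosome 22 from 41833079 to 41907308, SREBF1 (ENSG00000072310) on chromosome 17 from 17810399 to 17837002 and INSIG1 (ENSG00000186480) on chromosome 7 from 155297776 to 155310235 were listed at these GRCh38 positions.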

How the data were processed

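The authors' deposited gene table holds raw counts per Ensembl gene; the submitters' processing notes name HISAT2, featureCounts, CASAVA and GRCh38, without versions. A matching deposited table holds FPKM by the authors. The deposited exosome table holds counts and TPM per miRNA by the authors (Bowtie, per the submitters' processing notes). Left out were 6 columns whose names fit no sample given.

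Counts were fitted in R 4.3.3 by edgeR 4.0.16 (filterByExpr on the groups, TMM scaling, quasi-likelihood F test, 2-sided, Benjamini-Hochberg adjustment over all genes tested at 0.05). The SE was taken as the absolute log2 fold change over √F. CPM are TMM-scaled except in marker sums; log2 CPM used a prior count of 2. The fit was tested on simulated data with planted changes far larger than those of the members, which does not show its power at their sizes. Members and lists were chosen with earlier results of these data known. Values in all 6 libraries are printed for regulators and for the 3 lowest and 3 highest log2 fold changes of each arm. Motifs were searched on both strands. Alternatives were DESeq2 1.42.0, limma 3.58.1 (voom, and log2(FPKM + 1) or log2(FPKM + 0.1)), other scalings and filters, the replicate block and each library left out. No protein sequences were used.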

Additional observations from a re-analysis of the deposited data

How the results depend on the processing

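No member was called under any of the 15 alternatives. Without a filter on low counts edgeR called 3 genes higher and 3 lower, and leaving out each library in turn gave 0 to 1 higher genes, the 1 being BOLA2B without treated 2; none of these is a member. An unadjusted p under 0.05 was reached by MVD, TM7SF2 and PMVK without untreated 1 (370 of all genes), and by INSIG1 without untreated 3 (349), without treated 1 (131) and with the replicate block. Same-numbered libraries correlated at 0.281, -0.0648 and 0.481 in their deviations from the group means, and different-numbered ones at -0.421 to 0.184. Pairs 1 and 3 were thus the highest, while pair 2 lay within the range of the different-numbered ones. The labels do not say what the numbers mark, so the main fit did not pair the samples. Whether same-numbered libraries share an origin was not tested. With the replicate block 0 genes were called, 211 had an unadjusted p under 0.05 against 111 without it, and the sterol arm median was -0.09.

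The sterol arm count below 0 was 12 to 19 with 1 library left out. CYP51A1 turned above 0 with limma-voom (0.31), log2(FPKM + 1) (0.050), log2(FPKM + 0.1) (0.29) and the replicate block (0.17); the cause was not tested. With values rounded to 2 decimals and 0.00 taken as no sign, members whose sign turned when 1 library was left out had these log2 ranges: FASN -0.15 to 0.23, DHCR7 -0.26 to 0.063, ACLY -0.11 to 0.064, SC5D -0.20 to 0.14, HMGCS1 -0.29 to 0.064, IDI1 -0.18 to 0.18, SREBF2 -0.24 to 0.095, LSS -0.32 to 0.17, SCAP -0.17 to 0.14, STARD4 -0.28 to 0.093, MSMO1 -0.13 to 0.089, SREBF1 -0.32 to 0.15, MVD -0.54 to 0.30, TM7SF2 -0.39 to 0.12, MVK -0.25 to 0.13, NSDHL -0.23 to 0.17, INSIG2 -0.30 to 0.18 and CYP51A1 -0.80 to 0.80. Of these 21 turns, 10 came without untreated 3, 8 without untreated 1, 2 without treated 3 and 1 without treated 1. Unrounded, ACAT2 also turned without untreated 1 (0.0041) and IDI1 without treated 2 (0.0017). ELOVL6, at 0.00 with all libraries, ranged from -0.11 to 0.17. The difference between the arm medians was above 0 with limma-voom (0.01), log2(FPKM + 0.1) (0.01), the replicate block (0.01) and without treated 1 (0.02), with log2(FPKM + 1) at 0.00, and stood at -0.02 with the regulators added and -0.08 with means. The share of miR-33 with another total was not run, because the exosome table had no entry for it. Depth limits CYP51A1 most, with 22 counts in untreated 1.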
